A study of Mus musculus with 4 samples.

Results

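Primary neural stem cells that had lost Tut1 were compared with primary neural stem cells that had lost Trp53, gene by gene and isoform by isoform, in long-read Nanopore cDNA libraries. The members were the 2 libraries labelled Tut1f/f;Cre and Trp53f/f;Cre, out of 4 in the count table, and every gene with at least 20 reads in each of them, which left 7482 of 14949 genes and 17268 of 46637 isoforms. All cells came from the neocortex of mouse embryos and were primary cultures from mice with floxed alleles, meaning alleles in which loxP sites flank the part that Cre recombinase removes. Tut1f/f;Cre cells carried floxed Tut1, with loxP sites around exon 2, and Trp53f/f;Cre cells carried floxed Trp53 and, by their label, unmodified Tut1; both received a lipid nanoparticle (LNP) holding Cre mRNA and were collected 3 days later. Of the remaining libraries, Tut1f/f was the control, floxed Tut1 cells given an empty LNP, and Tut1f/f;Trp53f/f;Cre carried both floxed genes and received Cre. Each genotype was 1 library, and Cre acted on a culture as a whole, so each library held whatever mixture of recombined and unrecombined cells the treatment left.

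TUT1 is the enzyme that extends U6 snRNA with a short run of uridines; U6 is the spliceosomal RNA that pairs with the 5′ splice site and forms part of the catalytic centre. USB1 trims that tail, and the Lsm2-8 ring binds the finished end. p53, the product of Trp53, is a transcription factor that stress stabilises; it switches on genes for cell-cycle arrest, apoptosis and DNA repair, and in the developing cortex it is a known route by which damaged progenitors die. The comparison asks how the transcriptome of cells without TUT1, in which p53 was left intact, differed from that of cells labelled as without p53, whose Tut1 the label leaves intact.

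Both labels were first checked against the targeted genes. Trp53 had 67 reads with Tut1 deleted and 10 where the label gives Trp53 as deleted, against 175 in the control and 19 in Tut1f/f;Trp53f/f;Cre, and its main transcript, ENSMUST00000005371, had 48 and 6. Trp53 was therefore low where its label said it was deleted, by a log2 ratio of 2.93 (95% counting interval 1.96 to 4.05). Tut1 (chr19:8953847-8966210, GRCm38) was thinly covered, with 11 reads where it should be deleted, 14 where only Trp53 should be, 37 in the control and 27 in Tut1f/f;Trp53f/f;Cre. Reads of the 2 annotated Tut1 transcripts that hold exon 2 (chr19:8955387-8955577) numbered 3, 7, 31 and 9 in the same order, and the full-length coding transcript ENSMUST00000096239 had 0, 2, 28 and 6. The library labelled Trp53f/f;Cre, whose label leaves Tut1 intact, was thus nearer to Tut1f/f;Cre than to the control in its Tut1 reads, and at this depth the difference between both libraries was not detectable (log2 ratio -0.17, interval -1.45 to 1.08).

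The table held 4253498 reads for Tut1f/f;Cre and 4830314 for Trp53f/f;Cre, of which 2968653 and 3432639 named a gene. The control and Tut1f/f;Trp53f/f;Cre had 4244467 and 2863392 such reads. Levels are given as CPM, that is reads scaled to 1e+06 reads naming a gene, scaled by TMM (trimmed mean of M values), and ratios as log2 of the Tut1f/f;Cre level over the Trp53f/f;Cre level. With 1 library a side the 2 libraries themselves allow no test across conditions: every interval covers counting error only, reads amplified by PCR are not independent molecules, and each difference is a difference between 2 libraries. The annotated length of the transcripts read was 1319 bases in Tut1f/f;Cre and 1206 in Trp53f/f;Cre at the median, against 1743 in the control, and Xist had 44 and 49 reads against 0 and 0 in the control and Tut1f/f;Trp53f/f;Cre, with Kdm5d, Ddx3y, Eif2s3y and Uty at 0 in the first pair and between 28 and 155 in the second.

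Most genes had nearly the same level in both libraries, and the genes that did not were led by p53 targets on one side and a mixed group on the other. The log2 ratios had a median of -0.002 and an SD of 0.35 over the 7482 genes, and 90.9% of genes lay within 1.5-fold. A gene was called different when its ratio was at least 2-fold and its exact counting interval at an error rate of 0.001 excluded no change. By that rule 43 genes were higher in Tut1f/f;Cre (0.575% of those compared) and 31 were lower (0.414%). With a 95% interval and no minimum size, 730 genes lay above no change (9.76%) and 876 below it (11.7%). A further 847 genes reached 20 reads in only 1 of both libraries, 316 in Tut1f/f;Cre and 531 in Trp53f/f;Cre, and stayed outside the comparison; by fold and interval alone 24 of them were higher and 10 lower. When all 4 libraries were fitted with additive effects of Tut1 and Trp53 status, which leaves 1 residual degree of freedom, edgeR's quasi-likelihood test and DESeq2 each called 1 gene of 9882, Rpl3-ps1, with 31 and 17 genes at an unadjusted p under 0.05.

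**Figure D1:**
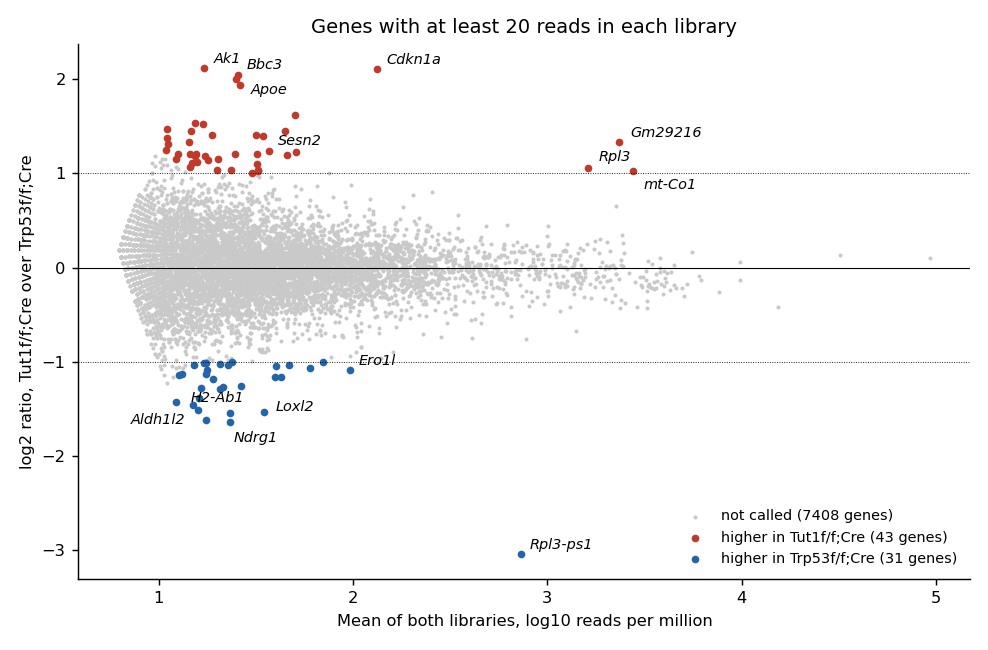
Log2 ratio of Tut1f/f;Cre over Trp53f/f;Cre against the mean level of both libraries (log10 CPM), 1 point a gene, for the 7482 genes with at least 20 reads in each library. Red points are the 43 genes called higher in Tut1f/f;Cre, blue points the 31 called lower, and dotted lines mark 2-fold; Cdkn1a stands apart at 2.11 and Rpl3-ps1 at -3.05.

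Cdkn1a, which encodes the CDK inhibitor p21 and is the classical p53 target, had the highest lower bound of all genes compared. It had 649 reads in Tut1f/f;Cre and 171 in Trp53f/f;Cre, against 744 in the control and 221 in Tut1f/f;Trp53f/f;Cre, or 216, 50.05, 185 and 73.7 CPM. It was 4.31-fold higher in Tut1f/f;Cre than in Trp53f/f;Cre (log2 ratio 2.11, interval 1.86 to 2.36), and both libraries with floxed Trp53 and Cre were low while the other two were high. Of the 34 genes in the higher group matched to a RefSeq promoter (250 bases before to 50 after a start, GRCm38.p6), Cdkn1a and Ccng1 held a pair of p53 half-sites with at most 1 mismatch and at most 13 bases between them. The half-site reads the same on both strands. Counted by gene, with any promoter of the gene, the pattern was found in 0.718% of 27025 genes, and counted by promoter in 0.627% of 32851. None of the 20 genes matched in the lower group held it, and of the 26 p53 targets matched, Gtse1 was the only other. The stretches are printed to show these p53 half-sites, in capitals, in Cdkn1a at chr17:29090896-29090957 (plus strand, 32 to 73 bases before the start) and in Ccng1 at chr11:40755452-40755491 (minus strand, 176 to 195 bases before the start).
Cdkn1a: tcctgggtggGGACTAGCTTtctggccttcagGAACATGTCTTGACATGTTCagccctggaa
Ccng1: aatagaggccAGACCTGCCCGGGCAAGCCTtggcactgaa
A match describes letters in this window and was not measured as binding.

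Of 8 p53 targets for arrest and feedback compared, 4 were called higher in Tut1f/f;Cre and none lower, with a median log2 ratio of 0.97 against -0.002 for all genes. Sesn2, a sestrin that restrains mTORC1, had 51.8 CPM in Tut1f/f;Cre and 21.95 in Trp53f/f;Cre (log2 ratio 1.24, interval 0.83 to 1.66), with 225 reads in the control and 63 in Tut1f/f;Trp53f/f;Cre. Psrc1, a spindle protein, had 43.9 and 20.5 CPM (1.10, 0.67 to 1.54), with 101 and 25.7 in the other two. Ccng1, which encodes cyclin G1, had 20.6 and 8.20 CPM (1.33, 0.66 to 2.03), but the control stood far above both at 74.0. So Cdkn1a and Sesn2 in Tut1f/f;Cre were close to the control, whereas Psrc1 and Ccng1 were below it. Btg2 and Gtse1 had log2 ratios of 0.83 and 0.73 with intervals above 0 but did not reach 2-fold, and Plk3, with 29 and 37 reads, was at -0.17 (interval -0.92 to 0.57). Mdm2, the ubiquitin ligase that p53 switches on and that degrades it, had 29 and 12 reads and Trp53inp1 41 and 11, too few in the second library for the comparison; Sesn1, with 5 and 16, ran the other way in value.

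Of the p53 targets for cell death, 1 of 4 compared was called higher and none lower. Bbc3, which encodes the BH3-only protein PUMA, had 124 reads in Tut1f/f;Cre and 34 in Trp53f/f;Cre, against 123 in the control and 31 in Tut1f/f;Trp53f/f;Cre, a 4.14-fold difference (log2 ratio 2.05, interval 1.49 to 2.64). Bax, the pore-forming effector of mitochondrial apoptosis, had 976 and 637 reads (0.80, 0.65 to 0.94), under 2-fold. Aen and Apaf1 were at 0.87 and 0.48, so all 4 members compared were positive, with a median of 0.84. The other members had fewer than 20 reads in at least 1 of both libraries and are given as values only: Fas, a death receptor, had 33 and 7 reads, Eda2r, a receptor of the same family, 41 and 7, Pmaip1, which encodes NOXA, 18 and 1 (log2 ratio 4.35, interval 1.69 to 9.73), Tnfrsf10b 15 and 2, Perp 19 and 3, Ei24 21 and 6, and Pidd1 2 and 3.

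Among p53 targets for repair and metabolism, 2 of 6 compared were called higher and none lower, with a median of 0.47. Dcxr, which encodes dicarbonyl and L-xylulose reductase, had 120 and 34 reads, 4.01-fold more in Tut1f/f;Cre (log2 ratio 2.002, interval 1.44 to 2.60). Polk, the translesion DNA polymerase kappa, had 50.2 and 19.02 CPM (1.40, 0.97 to 1.84); its control value of 12.5 lay below both, unlike that of the other called targets. The rest, Xpc, Rrm2b, Tigar and Ercc5, ran from 0.09 to 0.58 with intervals that hold 0. Over the 3 p53 lists together 18 members were compared, 7 were called higher, beside 0.575% of all genes, and none lower, 13 had a 95% interval above 0, beside 9.76% of all genes, and the median was 0.82.

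**Figure D2:**
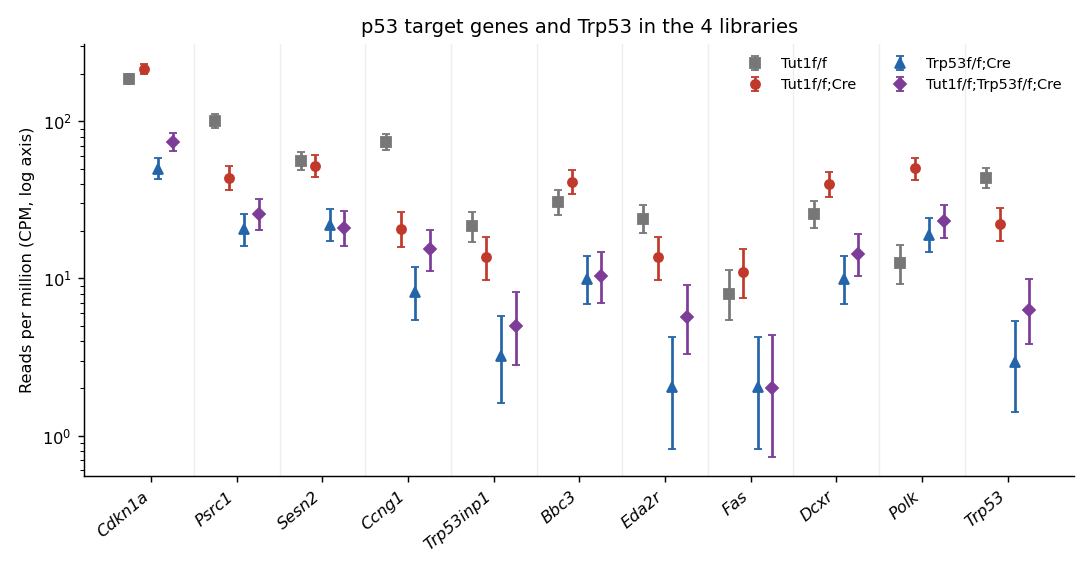
Levels of 10 p53 targets and Trp53 in the 4 libraries, in CPM on a log axis; each point is 1 library and bars are exact 95% Poisson intervals. The blue (Trp53f/f;Cre) points and the purple (Tut1f/f;Trp53f/f;Cre) points lie below the red (Tut1f/f;Cre) ones for each gene shown, and Cdkn1a falls from 216 to 50.05 CPM.

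Beyond the p53 lists, the genes called higher with the farthest bounds had varied roles. Apoe, the lipid carrier of glia, had 125 reads in Tut1f/f;Cre, 37 in Trp53f/f;Cre, 168 in the control and 54 in Tut1f/f;Trp53f/f;Cre (log2 ratio 1.94, interval 1.40 to 2.51). Ak1, an adenylate kinase, had 84, 22, 226 and 28 (2.12, 1.42 to 2.86). Ddit4l, an inhibitor of mTORC1 signalling, had 197, 82, 228 and 89 (1.45, 1.07 to 1.84). For these genes the libraries with floxed Trp53 and Cre were both low. Pgpep1, a peptidase, was at 1.41, Chrna4, a nicotinic receptor subunit, at 1.23, Abhd4, a lipid hydrolase, at 1.20, and Ckmt1, a mitochondrial creatine kinase, at 1.52; each also had a higher level in the control than in Trp53f/f;Cre. Of genes with under 20 reads in Trp53f/f;Cre, Mapkapk3, a kinase downstream of p38, had 50 reads against 5, 9530053A07Rik 78 against 12, and 1700007K13Rik 48 against 9.

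The called genes were also set beside the other libraries, as a description. On the log2 scale (CPM plus 0.5), 22 of the 74 called genes had the control nearer to Tut1f/f;Cre but Tut1f/f;Trp53f/f;Cre nearer to Trp53f/f;Cre, or 29.7%, against 13.7% of all genes compared; 16 of the 22 were higher in Tut1f/f;Cre. The opposite arrangement, with the control nearer to Trp53f/f;Cre but Tut1f/f;Trp53f/f;Cre nearer to Tut1f/f;Cre, held for 15 called genes, or 20.3%, against 18.5% of all. The largest class was 26 called genes (35.1%, against 40.1% of all) with both other libraries nearer to Tut1f/f;Cre. In 11 (14.9%, against 27.7%) both were nearer to Trp53f/f;Cre.

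Rpl3, the ribosomal protein of the large subunit, and its processed pseudogene Rpl3-ps1 on the X chromosome moved in opposite directions. Rpl3 had 6566 reads in Tut1f/f;Cre, 3595 in Trp53f/f;Cre, 10994 in the control and 4539 in Tut1f/f;Trp53f/f;Cre, and Rpl3-ps1 had 475, 4457, 823 and 4753. Rpl3 was thus at a log2 ratio of 1.05 (interval 0.99 to 1.11) and Rpl3-ps1 at -3.05 (-3.19 to -2.91), the farthest of all genes compared. Summed with Rpl3-ps2, which had 3 and 21 reads, the family had 7044 reads and 8073, a log2 ratio of -0.01 (-0.06 to 0.03). What differed was the division: Rpl3-ps1 took 6.74% of the family's reads in Tut1f/f;Cre (Wilson 95% interval 6.18 to 7.35) and 55.2% in Trp53f/f;Cre (54.1 to 56.3), with 6.96% in the control and 51.1% in Tut1f/f;Trp53f/f;Cre. In GENCODE M21 the pseudogene transcript is identical to the Rpl3 transcript ENSMUST00000081650 at 1208 of 1210 aligned bases, so within that stretch they differ at 2 positions, C57A and T786C, counted from the first base of the Rpl3 start codon with the Rpl3 base first. The Rpl3 transcript is longer, 1351 bases against 1210, so its unaligned ends also differ. The bases around both positions are printed to show how alike the shared stretch is, with the differing base in capitals.
Rpl3, first difference: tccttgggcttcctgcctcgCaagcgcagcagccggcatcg
Rpl3-ps1, first difference: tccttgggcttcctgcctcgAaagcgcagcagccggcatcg
Rpl3, second difference: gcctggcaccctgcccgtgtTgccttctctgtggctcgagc
Rpl3-ps1, second difference: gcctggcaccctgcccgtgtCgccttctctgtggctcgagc
The levels of the 2 genes are therefore uncertain, while their sum is not touched by the division. Of 80 cytosolic ribosomal protein genes compared, Rpl3 was the single one called; the median was -0.10, and 66 had a negative ratio, as did 3761 of all 7482 genes.

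mt-Co1, the mitochondrially encoded catalytic subunit of cytochrome c oxidase, was 2.03-fold higher in Tut1f/f;Cre. It had 11095 reads, against 6196 in Trp53f/f;Cre, 8124 in the control and 10763 in Tut1f/f;Trp53f/f;Cre, or 3686, 1813, 2024 and 3587 CPM. For mt-Co1 itself both libraries with floxed Tut1 and Cre were thus high and the other two low. Gm29216, an unprocessed pseudogene on chromosome 1 whose transcript matches mt-Co1 at 482 of 483 bases, had 10105 reads in Tut1f/f;Cre, 4555 in Trp53f/f;Cre, 9608 in the control and 7715 in Tut1f/f;Trp53f/f;Cre (log2 ratio 1.33, interval 1.28 to 1.38), so reads may be split between them. Their sum was 21200, 10751, 17732 and 18478 reads in the same order (1.16, 1.13 to 1.20), and on that sum the control was not at the level of Trp53f/f;Cre. mt-Ts1, a mitochondrial serine tRNA whose gene (6870-6938 on the mitochondrial genome, minus strand) overlaps the end of mt-Co1 (5328-6872, plus strand), had 228, 84, 142 and 190 reads (1.62, 1.26 to 2.002). The other 9 mitochondrially encoded genes compared were not called: mt-Nd3 was lowest at -0.48 and mt-Cytb, the cytochrome b subunit, had 10504 and 11636 reads (0.04, -0.003 to 0.07).

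Genes of U6 maturation and of the spliceosome had list medians near no change, with some members apart. Of 15 genes for U6 maturation and U6 binding compared, 1 was called higher, beside 0.575% of all genes, and none lower, with a median log2 ratio of 0.02. By sign 9 were positive and 6 negative. A 95% interval lay above 0 for 3, beside 9.76% of all genes, and below 0 for 2, beside 11.7%. Larp7 and Ssb, which encode proteins that bind the U6 tail, were at 0.09 and 0.17, and Lsm2, Lsm3, Lsm4, Lsm6, Lsm7 and Lsm8, subunits of the ring that holds the finished end, lay between -0.16 and 0.09. The ring subunit Lsm5 was the lowest, with 1195 reads in Tut1f/f;Cre and 1614 in Trp53f/f;Cre (-0.25, -0.36 to -0.14). Usb1, with 20 and 19 reads, and Mepce, with 23 and 12, were too thinly covered in Trp53f/f;Cre to enter the comparison, and Tut1 in both. The called member was Prpf3, a protein of the U4/U6 particle, with 96 reads in Tut1f/f;Cre, 53 in Trp53f/f;Cre, 111 in the control and 143 in Tut1f/f;Trp53f/f;Cre (1.04, 0.54 to 1.55).

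Of 28 core spliceosome genes, 1 was called higher, beside the same 0.575% of all genes, and none lower, and the median was 0.06. By sign 20 were positive and 8 negative. A 95% interval lay above 0 for 7, beside 9.76% of all genes, and below 0 for 2, beside 11.7%. Prpf8, the scaffold that holds the catalytic U6 RNA, had 43.5 CPM in Tut1f/f;Cre, 21.4 in Trp53f/f;Cre, 18.2 in the control and 49.7 in Tut1f/f;Trp53f/f;Cre (log2 ratio 1.03, interval 0.60 to 1.46). Snrnp200, the helicase that unwinds U4 from U6 and partners Prpf8, had 774, 515, 293 and 738 reads (0.77, 0.61 to 0.93), under 2-fold. In both genes the libraries with floxed Tut1 and Cre were high and the other two low. Prpf19, with 43 and 22 reads, was at 1.15 (0.38 to 1.96) and was not called, and the Sm proteins Snrpd1, Snrpd2, Snrpd3, Snrpe, Snrpf and Snrpg lay between -0.27 and 0.05. None of 29 splicing regulators was called. They ran from Srsf6 at -0.42 to Clk1, a kinase of SR proteins, at 0.48, with a median of 0.02. Of these, 18 were positive and 11 negative, and 5 had a 95% interval above 0 and 3 below.

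**Figure D3:**
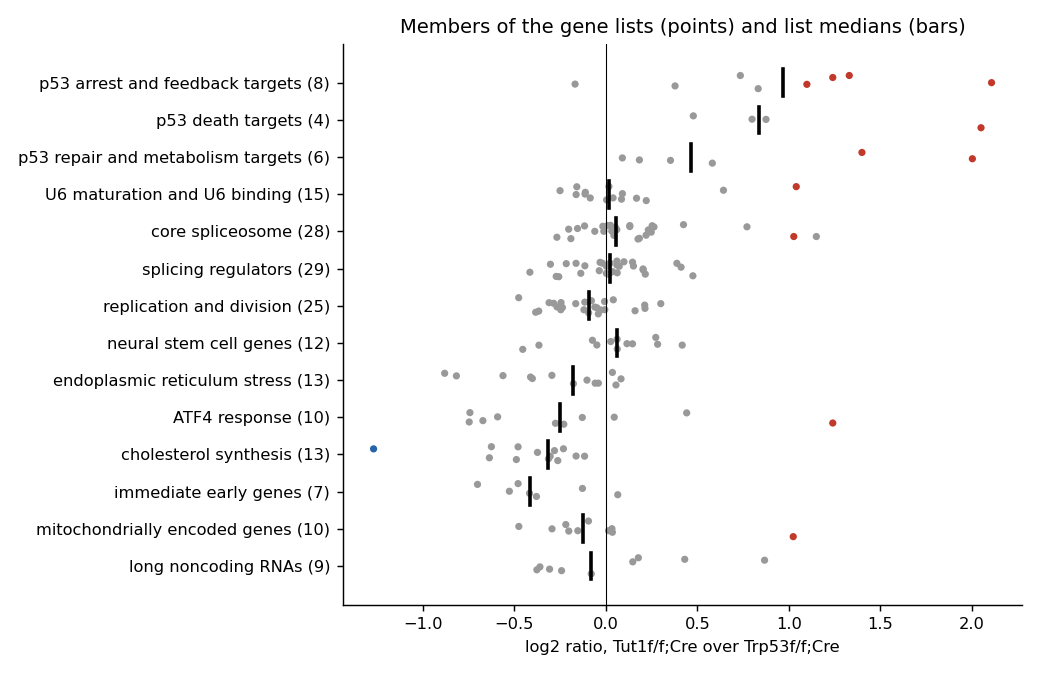
Log2 ratios of the members of 14 gene lists (points) with each list's median (black bar) and the number of members compared in brackets; red points are genes called higher and blue points genes called lower in Tut1f/f;Cre. The 3 p53 lists have medians of 0.97, 0.84 and 0.47, and the U6 and spliceosome lists medians near 0.

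The genes lower in Tut1f/f;Cre included several that textbook accounts place under the oxygen-sensing factor HIF. Loxl2, a lysyl oxidase, had 54 reads in Tut1f/f;Cre, 178 in Trp53f/f;Cre, 63 in the control and 41 in Tut1f/f;Trp53f/f;Cre (log2 ratio -1.54, interval -2.01 to -1.09). Ndrg1, a stress-responsive protein, had 34, 120, 34 and 46 (-1.64, -2.23 to -1.08). Ero1l, which reoxidises protein disulfide isomerase, had 185, 448, 345 and 179 (-1.09, -1.35 to -0.84), and Apln, a secreted peptide, 93, 216, 138 and 64 (-1.03, -1.40 to -0.68). In these genes, picked for their values, Trp53f/f;Cre had the highest level of the 4 libraries. Stc1, named after its values were seen, had 35, 90, 50 and 31 reads. Of 18 other textbook oxygen-responsive genes compared, a list written after these values were known, none was called, 14 were negative and 11 had a 95% interval below 0, beside 11.7% of all genes, with a median of -0.33: Slc2a1, the glucose transporter GLUT1, was at -0.44, Egln1 at -0.60 and Vegfa at -0.69, while P4ha1 was at 0.60. Because the list was written with these values known, nothing is read from its counts. Summed over the list the control was highest, at 5425 CPM, against 4352 in Trp53f/f;Cre, 4392 in Tut1f/f;Trp53f/f;Cre and 3856 in Tut1f/f;Cre.

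Histocompatibility genes formed a second group among those lower, also noticed after the values were seen. H2-Ab1, a class II chain, had 36 reads in Tut1f/f;Cre, 119 in Trp53f/f;Cre, 79 in the control and 43 in Tut1f/f;Trp53f/f;Cre (log2 ratio -1.54, interval -2.12 to -0.99). H2-K1, a class I heavy chain, had 36, 100, 101 and 76 (-1.29, -1.88 to -0.73), H2-D1, another, 34, 82, 69 and 37 (-1.09, -1.71 to -0.49), and H2-Q7 3, 49, 45 and 16 (-3.85, -6.17 to -2.22). Of 13 histocompatibility genes measured, 6 were compared and 3 called lower, beside 0.414% of all genes, with a median of -0.80; the group was picked for these values, so nothing is read from the count. Tut1f/f;Cre had the lowest level of the 4 libraries for each of these 4 genes, though for H2-D1 it was close to Tut1f/f;Trp53f/f;Cre. These genes are alike in sequence and reads can be split between them, and H2-DMa, at 0.38 (-0.32 to 1.09), did not share the direction. Tap1, which carries peptides to class I molecules, had 42 and 13 reads, the other way (1.87, 0.95 to 2.90). Of 5 interferon and RNA-sensing genes compared none was called, with a median of 0.10.

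Of 13 cholesterol synthesis genes compared, 1 was called lower, beside 0.414% of all genes. All 13 had a negative log2 ratio, as did 3761 of all 7482 genes. Of the 13, 9 had a 95% interval below 0, where 11.7% of all genes did, and the median was -0.31 against -0.002 for all genes. Lss, which closes the sterol ring, was the one called, with 38 reads in Tut1f/f;Cre, 104 in Trp53f/f;Cre, 110 in the control and 92 in Tut1f/f;Trp53f/f;Cre (-1.27, -1.85 to -0.72). Msmo1, a sterol demethylating oxidase, was at -0.63, Fdps, farnesyl diphosphate synthase, at -0.49, and Dhcr7, the last reductase, at -0.12. Tm7sf2, a sterol reductase on chromosome 19 within 10 Mb of Tut1, had 47, 128, 228 and 66 reads (-1.26, -1.78 to -0.77).

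The ATF4 response, which cells use when amino acids or tRNA charging run short, had mostly negative ratios. Of 10 members compared 7 were negative, as were 3761 of all 7482 genes, 5 had an interval below 0, beside 11.7% of all genes, and the median was -0.25. Asns, asparagine synthetase, had 116 and 221 reads (-0.75, -1.08 to -0.42), Mthfd2, of mitochondrial folate metabolism, 157 and 284 (-0.67, -0.96 to -0.39), and Shmt2, a mitochondrial serine hydroxymethyltransferase, 30 and 57 (-0.74, -1.43 to -0.08). The 3 positive members were Sesn2, which is also a p53 target and the one called, Ppp1r15a, the stress-induced phosphatase subunit GADD34, at 0.44 (-0.12 to 1.01), and Phgdh, the first enzyme of serine synthesis, at 0.05 (-0.20 to 0.29). Trib3, a pseudokinase of the same response, had 8 reads against 47, with 20 in the control and 14 in Tut1f/f;Trp53f/f;Cre. Aldh1l2, a mitochondrial folate enzyme outside the list, had 26, 91, 60 and 52 (-1.62, -2.31 to -0.98). Genes of endoplasmic reticulum stress gave no call among 13, with 10 negative and a median of -0.18. A 95% interval lay below 0 for 5, beside 11.7% of all genes, and above 0 for none, beside 9.76%. Xbp1 was at -0.82 and Hspa5, the chaperone BiP, at 0.05.

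The remaining genes with the farthest bounds on the lower side had no role in common that a list here covered. Cdkn3, a phosphatase that acts on CDKs, had 117 and 279 reads (log2 ratio -1.07, interval -1.39 to -0.75), Galk1, galactokinase, 26.2 and 58.8 CPM, Galnt2, which starts O-glycans, 140 and 319 reads, Phf10, a chromatin-remodelling subunit, 74 and 188, Sap30, of the Sin3 deacetylase complex, 79 and 185, and Agtrap 25 and 81. The call of Galnt2 was lost under DESeq2 size factors and under library totals, where its ratio was -0.99 and -0.98. Of genes with under 20 reads in Tut1f/f;Cre, Gm21541 had 8 against 68, Tmem259 7 against 35 and Gpc3, a glypican, 15 against 52. Immediate early genes gave no call among 7 compared, with a median of -0.42; Ier3 had 527 and 973 reads (-0.70, -0.86 to -0.55) and Egr1 679 and 737 (0.06, -0.09 to 0.22). Of 25 replication and division genes none was called, the median was -0.09, and Bub1 was lowest at -0.48. Of the 25, 20 were negative, as were 3761 of all 7482 genes. A 95% interval lay below 0 for 7, beside 11.7% of all genes, and above 0 for 2, beside 9.76%.

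**Figure D4:**
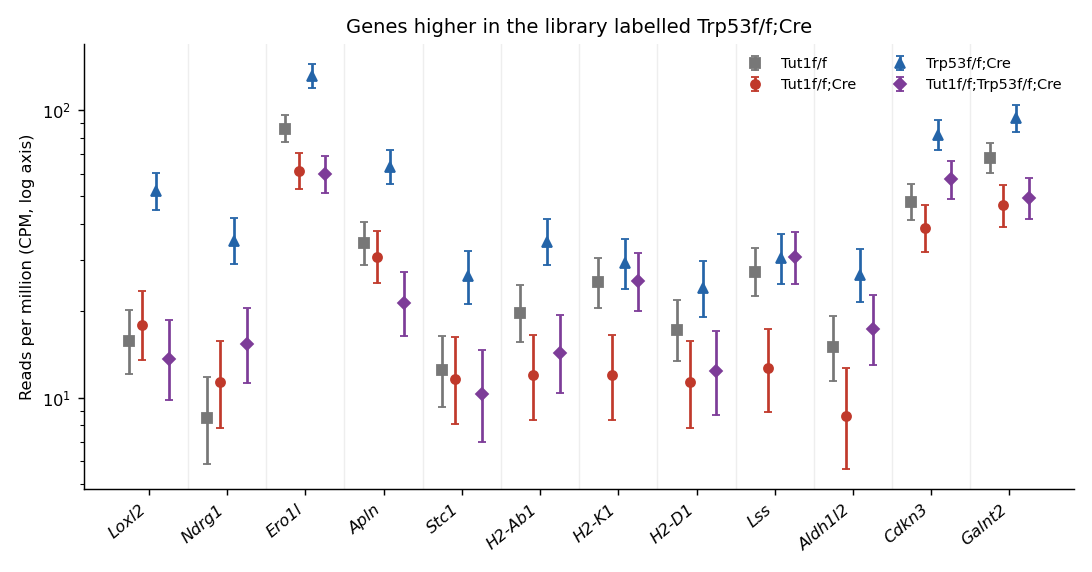
Levels of 12 genes called lower in Tut1f/f;Cre than with Trp53 deleted by label, in CPM on a log axis, with exact 95% Poisson intervals; each point is 1 library. Trp53f/f;Cre (blue) is above Tut1f/f;Cre (red) for every gene shown, and for Loxl2 and Ndrg1 the other 3 libraries lie below it.

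Cell type markers were compared as well. None of 12 neural stem cell genes was called, and the median log2 ratio was 0.06. Of the 12, 5 had a 95% interval above 0, beside 9.76% of all genes, and 1 below, beside 11.7%. Fabp7, the radial glial lipid-binding protein, had 30043 and 32690 reads, Sox2 1149 and 1350, and Nes, the stem cell filament nestin, 926 and 1007. The dorsal markers Pax6 (60 and 56 reads) and Emx2 (54 and 79) were not called, and the table held 2 of 6 dorsal and 3 of 8 ventral forebrain markers. The summed level of 12 neuron markers was 370 CPM in Tut1f/f;Cre and 372 in Trp53f/f;Cre, most of it Gap43, and that of 8 oligodendrocyte lineage markers 657 and 753, most of it Olig2, which had 1391 and 1953 reads (-0.31, -0.41 to -0.21). The 11 astrocyte markers summed to 621 and 632 CPM, with Gfap absent from the table and Apoe the one member called. Microglia markers summed to 0.66 and 0.88 CPM and mesenchymal markers to 0 and 0.29, and no endothelial marker was in the table. In bulk libraries fewer cells of a type and less RNA per cell cannot be told apart.

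Called genes near the targeted loci were few. Within 10 Mb of Tut1, 132 genes were compared and 1, Tm7sf2, was called, lower. Within 10 Mb of Trp53, 153 were compared and 3 were called, Prpf8 higher and B9d1 (24 and 60 reads) and Dhx33 (41 and 95 reads) lower, beside 0.575% of all genes called higher and 0.414% called lower. The call of B9d1 was lost under DESeq2 size factors and under library totals.

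Isoform usage was compared as the share of a gene's reads that an isoform took, for isoforms with at least 10 reads over both libraries in genes with more than 1 isoform. An isoform was called when its share differed by at least 10 percentage points and the Newcombe interval of the difference at an error rate of 0.001 excluded 0. Of 17268 isoforms in 6072 genes, 30 were higher and 32 lower in Tut1f/f;Cre, 62 in all (0.359%), in 48 genes; the median absolute difference over all was 2.05 points. Of the 62 calls 43 were annotated Ensembl transcripts, 10 numbered variants of them and 9 isoforms named after a read. Only 1 gene, Dcxr, was called in both level and usage. In 29 of the 62 (46.8%, against 20.6% of all isoforms compared) the control was nearer to Trp53f/f;Cre but Tut1f/f;Trp53f/f;Cre nearer to Tut1f/f;Cre, and in 11 (17.7%, against 17.2%) the arrangement was the opposite. Both other libraries were nearer to Tut1f/f;Cre in 15 (24.2%, against 32.0%) and nearer to Trp53f/f;Cre in 7 (11.3%, against 30.2%).

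Ociad1 and Ube2v2 were called for transcripts with and without an internal exon. Ociad1, an endosomal and mitochondrial protein, had 394 reads in Tut1f/f;Cre and 374 in Trp53f/f;Cre. Its transcript ENSMUST00000071081, which lacks exon 8 and uses a longer exon 7, took 30.2% of reads in Tut1f/f;Cre, 12.6% in Trp53f/f;Cre, 14.5% in the control and 29.6% in Tut1f/f;Trp53f/f;Cre. That was 17.6 points more in Tut1f/f;Cre (95% interval 11.9 to 23.2), and ENSMUST00000031038, which holds the exon, was 19.98 points lower, at 43.7% and 63.6%. Ube2v2, a variant ubiquitin-conjugating enzyme that works with UBC13 in DNA damage tolerance, behaved alike. ENSMUST00000115776, without exon 3, took 30.7, 15.3, 19.4 and 30.2% in the same order (15.4 points, 8.47 to 22.2), and ENSMUST00000115777, with it, 44.6, 65.3, 58.5 and 46.5%. In both genes the libraries with floxed Tut1 and Cre were high in the skipped form and did not overlap the other two in their Wilson intervals. The skipped exons lie wholly in coding sequence and are printed here in full from GENCODE M21 (GRCm38), because they are what the isoforms gain or lose: exon 8 of Ociad1, 153 bases at chr5:73310274-73310426 on the plus strand, and exon 3 of Ube2v2, 126 bases at chr16:15577015-15577140 on the minus strand.
Ociad1: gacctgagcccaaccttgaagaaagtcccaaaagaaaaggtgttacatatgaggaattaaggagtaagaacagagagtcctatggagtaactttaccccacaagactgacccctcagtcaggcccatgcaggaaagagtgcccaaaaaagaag
Ube2v2: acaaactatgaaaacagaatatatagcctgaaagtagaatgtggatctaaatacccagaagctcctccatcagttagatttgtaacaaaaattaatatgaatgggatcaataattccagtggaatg
The Ube2v2 exon is 42 codons long, and the annotated reading frame falls from 145 codons to 103 without it. In Ociad1 the reading frame of the short form stops in the extended exon 7 and has 189 codons against 247.

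Scnm1, a zinc-finger protein of the minor spliceosome, showed the same arrangement. Its transcript without exon 6 (195 bases, chr3:95130164-95130358), ENSMUST00000173462, took 17.7% of reads in Tut1f/f;Cre, 6.47% in Trp53f/f;Cre, 6.04% in the control and 18.5% in Tut1f/f;Trp53f/f;Cre, and ENSMUST00000172572, with the exon, 38.1, 55.2, 57.1 and 40.8%, a call lost with annotated transcripts alone (-17.1 points). Hpf1, which directs PARP1 to serine, had 57.4% of its reads in the full 8-exon transcript ENSMUST00000037190 in Tut1f/f;Cre and 73.9% in Trp53f/f;Cre (16.5 points lower in Tut1f/f;Cre, interval of the difference -22.8 to -10.1), with 65.8 and 58.7% in the control and Tut1f/f;Trp53f/f;Cre. With annotated transcripts alone its difference was -8.06 points and not called. The 3-exon form ENSMUST00000146863, which lacks exons 2 to 6, was at 10.5 and 4.28% and was not called. Dcxr differed more widely on few reads: ENSMUST00000026144, with a 65-base exon 6, took 32 of 120 reads in Tut1f/f;Cre and 23 of 34 in Trp53f/f;Cre, or 26.7 and 67.6%, with 43.7 and 44.2% in the other two, which lay between.

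Transcript ends and retained introns accounted for other calls. Pbdc1 switched its last exon: ENSMUST00000119477, ending at chrX:105116314-105117090, took 33.9% in Tut1f/f;Cre, 19.4% in Trp53f/f;Cre, 18.6% in the control and 37.5% in Tut1f/f;Trp53f/f;Cre, and ENSMUST00000033577, ending at chrX:105083016-105085186, 48.5, 63.3, 59.6 and 45.6%. Mbtps2, the site-2 protease that releases SREBP and ATF6, had its retained-intron transcript ENSMUST00000139786 at 34.5, 11.7, 6.12 and 28.1% (30 of 87 reads against 11 of 94; 22.8 points, 10.6 to 34.4). Prpf4b, a kinase of the spliceosome, gave most of its reads in these libraries to the retained-intron transcript ENSMUST00000221639 at its 5′ end, with 64.8% in Tut1f/f;Cre and 58.4% in Trp53f/f;Cre, which was not called. Its short 3′ transcript ENSMUST00000223228 was, at 12.7, 23.6, 38.3 and 12.6% (10.9 points lower in Tut1f/f;Cre, -13.8 to -7.92). Pnisr, a serine- and arginine-rich splicing-related protein, had the noncoding transcript ENSMUST00000152666, with a last exon of 3289 bases, at 34.3, 16.8, 16.1 and 31.9% (17.5 points, 7.59 to 27.1). Rit1, a Ras-like GTPase, had its main transcript at 85.2 and 70.3% and no isoform called. Among these genes, Pbdc1, Mbtps2 and Pnisr were high and Prpf4b low in both libraries with floxed Tut1 and Cre.

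In 11 of the 62 calls, 17.7% against 17.2% of all isoforms compared, the control was on the side of Tut1f/f;Cre and both libraries with floxed Trp53 and Cre lay together, so this arrangement was no more frequent than in all isoforms. Some of its members are given as values. Cyb5r3, cytochrome b5 reductase, had the bound farthest from 0. A numbered variant of ENSMUST00000018186 took 19.4% of its reads in Tut1f/f;Cre and 48.6% in Trp53f/f;Cre, 29.2 points less in Tut1f/f;Cre (-36.3 to -21.6), with 6.54% in the control and 42.4% in Tut1f/f;Trp53f/f;Cre. The transcript itself was at 63.2, 35.1, 72.5 and 43.0%. Mrpl55, a mitochondrial ribosomal protein, had 33.7, 8.21, 38.7 and 7.75% in ENSMUST00000108785, whose exon 2 starts 3 bases further in than that of ENSMUST00000045697 (chr11:59204175 against chr11:59204172). Atf4 had 88.6 and 71.4% in its main transcript ENSMUST00000109605, and the rest, 11.4 and 28.6%, in a numbered variant of ENSMUST00000229828. Stk11, the kinase LKB1, had 5.63 and 20.4% in a numbered variant of ENSMUST00000003152, an annotated form that starts upstream of the main one. Bax had a numbered variant of ENSMUST00000210392, an annotated form whose first exon spans exons 1 and 2 of the spliced transcript and the intron between, at 34.9, 21.4, 28.7 and 24.2% (13.6 points, 9.14 to 17.9), and the spliced ENSMUST00000033093 at 45.3, 56.2, 51.4 and 55.2%, where the control was nearer to Trp53f/f;Cre. With numbered variants and read-named isoforms left out, the differences of the annotated transcripts of Cyb5r3 and Bax were 3.48 and -2.62 points and Atf4 and Stk11 had none, so these calls rest on the variants. What distinguishes a numbered variant from the transcript it is named for was not given in the table.

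**Figure D5:**
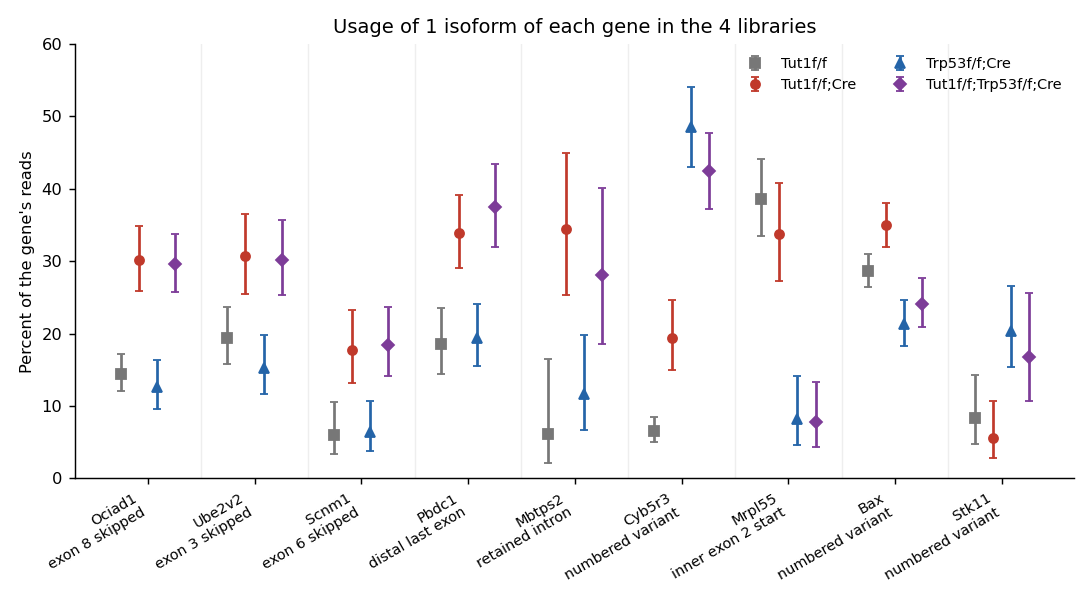
Share of the gene's reads, in percent, taken by 1 isoform of each of 9 genes in the 4 libraries; each point is 1 library and bars are Wilson 95% intervals. In the first 5 genes, from Ociad1 to Mbtps2, the red (Tut1f/f;Cre) and purple (Tut1f/f;Trp53f/f;Cre) points are the higher pair; in Cyb5r3, Mrpl55 and Stk11 the libraries with floxed Trp53 and Cre (blue and purple) lie together.

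Of further genes with far bounds, Hspa5, Zcchc17, Thyn1 and Mrpl3 had the control nearer to Trp53f/f;Cre but Tut1f/f;Trp53f/f;Cre nearer to Tut1f/f;Cre in value. Hspa5 had ENSMUST00000100171 at 33.9% in Tut1f/f;Cre, 17.7% in Trp53f/f;Cre, 22.2% in the control and 36.9% in Tut1f/f;Trp53f/f;Cre. Zcchc17 had ENSMUST00000134159 at 21.3, 35.9, 63.5 and 27.7% in the same order. With annotated transcripts alone the differences of Hspa5 and Zcchc17 were 2.04 and -1.96 points and not called. Thyn1 had ENSMUST00000213683, in which the first intron is kept, at 19.95, 7.80, 13.8 and 15.4%, where the intervals of the last pair overlap and the control lay midway. Mrpl3 had ENSMUST00000149243, with a last exon of 1311 bases in place of a spliced one, at 13 and 2 of the gene's 20 reads in Tut1f/f;Cre and Trp53f/f;Cre, and at 7.09 and 52.6% in the control and Tut1f/f;Trp53f/f;Cre. In Tpi1 and Cmss1 both of the latter were nearer to Tut1f/f;Cre. Tpi1, the glycolytic triosephosphate isomerase, had ENSMUST00000172132 at 16.6, 34.6, 23.9 and 17.7%, a call lost with annotated transcripts alone (-17.5 points). Cmss1 had the 2-exon transcript ENSMUST00000232413 at 43.4, 66.7, 28.6 and 34.7% and the 10-exon ENSMUST00000114371 at 52.5, 30.1, 66.0 and 58.7%.

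Transcripts annotated as retained introns took 2.06% of annotated-transcript reads in Tut1f/f;Cre (Wilson interval 2.04 to 2.08) and 1.95% in Trp53f/f;Cre (1.93 to 1.97), with 1.19% in the control and 2.03% in Tut1f/f;Trp53f/f;Cre. The difference of 0.11 points (0.09 to 0.14) was larger than counting error but small beside the gap of both to the control, whose transcripts were also longer by annotation. Without ribosomal RNA in the denominator, an alternative added after the data were seen, the shares were 2.52 and 2.34%. Transcripts annotated as rRNA took 13.01% of annotated-transcript reads in Tut1f/f;Cre, 11.96% in Trp53f/f;Cre, 23.93% in the control and 7.36% in Tut1f/f;Trp53f/f;Cre. Mitochondrial rRNA took 5.05, 4.64, 1.199 and 3.896% in the same order. Shares without ribosomal RNA were not computed for the control and Tut1f/f;Trp53f/f;Cre. The place of Tut1f/f;Trp53f/f;Cre near Tut1f/f;Cre was therefore seen only with ribosomal RNA counted. Per gene, 1343 had retained-intron reads to compare, 763 were higher and 550 lower in Tut1f/f;Cre by sign, 86 had a 95% interval above 0 and 43 below, the median difference was 0.31 points, and Mbtps2 was the one called, at 41.4 and 17.02% over its retained-intron transcripts. Transcripts marked for nonsense-mediated decay took 0.41% in both libraries, and the difference was not detectable (interval -0.01 to 0.01 points).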

How the data were processed

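The authors sequenced cDNA of mouse neural stem cells on Nanopore and deposited 1 table of raw read counts per isoform, not normalized, with a column for each of 4 libraries. The labels give the build mm10. For long-read libraries of dissected embryonic pallium the authors name minimap2 as aligner and FLAIR for splicing events. The aligner and counter behind this table of neural stem cells are not stated. Isoforms carry an Ensembl transcript name, such a name with a number added (a numbered variant) or a read name, each with a gene or a locus; isoforms at a locus naming no gene were left out, 30.2 and 28.9% of reads in the libraries compared. Whether the counting used strand is not given, and near-identical genes can split reads.

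Isoform counts were summed per gene and scaled by TMM over the 4 libraries (edgeR 4.0.16, R 4.3.3). Tut1f/f;Cre was set against Trp53f/f;Cre, 1 library each, by exact conditional binomial intervals of the ratio, and isoform shares by Wilson and Newcombe intervals (Python 3.11.15, scipy 1.17.1); DESeq2 1.42.0 gave alternative scaling and fits. Scripts were tested on simulated data. Gene and transcript structures came from GENCODE M21 (GRCm38) and promoters from RefSeq (GRCm38.p6). Named genes were the targeted genes, Pnisr, Prpf4b, Ube2v2 and Rit1, called list members, the 15 genes in each direction and 20 isoforms with bounds farthest from no change, and others marked as chosen after their values were seen. The members and lists were chosen with earlier results of these data known. Some results are not reported here.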

Additional observations from a re-analysis of the deposited data

Results flagged for a closer look

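Reads at loci that name no gene were outside every comparison of the report, and their share stood above that of the control library. They were 30.2% of all reads in Tut1f/f;Cre and 28.9% in Trp53f/f;Cre, against 17.2% in the control and 27.3% in Tut1f/f;Trp53f/f;Cre. Of 8755 such loci with at least 20 reads in each of the first pair, 57 were higher and 27 lower in Tut1f/f;Cre by the rule used for genes, or 0.959%.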

How the results depend on the processing

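No paired analysis was possible because each group was 1 library, and for the same reason no replicate could be left out. The 74 genes called different became 27 with at least 50 reads in each library, 112 with at least 20 over both, 221 at 1.5-fold, and 1 in the additive model of 4 libraries with edgeR and 1 with DESeq2. The other alternatives gave 70 to 100 genes, and the split of higher against lower was 46 to 24 under library totals against 43 to 31. The 62 isoforms became 21 at 20 points, 628 with 95% intervals, 30 with annotated transcripts only, 37 by Fisher's exact test, all 37 among the 62, and 0 by edgeR's diffSpliceDGE, where 45 isoforms had an unadjusted p under 0.05. The median ratio of p53 targets lay between 0.83 and 0.87 under other scalings and read minimums, and was 0.73 over 15 genes without Cdkn1a, Bbc3 and Dcxr, an alternative chosen after seeing the data. Retained-intron shares in Tut1f/f;Cre and Trp53f/f;Cre were 1.55 and 1.45% of all reads naming a gene, 1.97 and 1.87% over the compared genes, 1.97 and 1.86% without the gene with most such reads, and 2.52 and 2.34% without ribosomal RNA, also chosen after seeing the data; the direction held in each. Of the called genes, 5 lost their call under DESeq2 size factors (B9d1, Fam213b, Espl1, Galnt2 and Cmc4) and 7 under library totals (these, Myh14 and Ubald1). Of 41 annotated transcripts followed, 20 lost their call with annotated transcripts only. None reversed. With 1 library a side, depth limits only counting error, and variation between cultures is not measured.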
